A study of Homo sapiens with 24 samples.

Results

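GP5 encodes glycoprotein V, a subunit of the platelet receptor complex GPIb-IX-V. Its mRNA was measured here in Nalm6, an established human cell line of B-cell precursor acute lymphoblastic leukemia (B-ALL). GP5 was chosen by measured values of these same libraries: it was lower after dexamethasone (dex), a synthetic glucocorticoid, and higher in cells expressing shRNA against G9a in both treatments. Those differences are therefore described below and not tested. GP5 was 1 of the 64519 RefSeq accessions in the count table (NM_004488), and it was among the 10167 transcripts that passed the filter on low counts. A transcript passed when 2 or more libraries held over 1 CPM of it, where CPM is the read count divided by the library size and scaled to a common total.

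The 24 libraries fell into 8 conditions with 3 biological replicates each. All were Nalm6 populations infected with a lentiviral shRNA vector and kept under puromycin, so that each is a selected population and not a clone. The shRNA had a non-specific sequence (shNS) or targeted G9a, G9a-like protein (GLP) or HP1γ, which are encoded by EHMT2, EHMT1 and CBX3. Each population received 100 nM dex or the vehicle ethanol for 8 h, and the replicates were made on different days.

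The GPIb-IX-V complex tethers platelets to von Willebrand factor at sites of vessel injury, and glycoprotein V is the subunit that thrombin can cleave. The gene is used as a marker of the megakaryocyte and platelet lineage, not of B cells. G9a and GLP are related methyltransferases of histone H3 lysine 9, a mark that HP1 proteins bind, and all 3 proteins can act as coregulators of the glucocorticoid receptor (GR), the receptor for dex.

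GP5 lies on chromosome 3, on the minus strand of GRCh37 (hg19), from 194115550 to 194119995. GENCODE annotates 2 transcripts there, 1 with a single exon of 3534 bases and 1 with a first exon of 29 bases and a second of 3464 bases. The coding sequence of 1680 bases (194117332 to 194119011) is in 1 exon in both. No other annotated gene overlaps GP5 on either strand. Whether reads from outside annotated genes were counted for it was not tested. The single-exon transcript starts at 194119083, inside the other transcript. The 250 bases before the start of the transcript with 2 exons are chr3:194119996-194120245 on the minus strand. They are shown because they precede the gene whose RNA level is reported below. They were read from GRCh37 and are identical to the RefSeq window for GRCh38. Capitals mark the only matches to 3 short motifs searched on both strands.

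GP5 promoter: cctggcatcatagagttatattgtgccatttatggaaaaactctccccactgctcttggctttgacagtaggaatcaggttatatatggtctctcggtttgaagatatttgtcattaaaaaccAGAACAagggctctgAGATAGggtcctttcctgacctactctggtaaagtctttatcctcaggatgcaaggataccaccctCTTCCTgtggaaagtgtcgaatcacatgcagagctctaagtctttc

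The first capitals are AGAACA, the half-site letters of a GR element, at 127 to 122 bases before the start. Of 35116 RefSeq promoter windows cut to the same length, 12.4% held these letters. The full site searched, that half-site followed by 3 bases and its reverse complement TGTTCT, was not in this window and was in 0.00285% of promoters. The second is AGATAG, 1 of 4 forms of a GATA site searched (A or T, then GATA, then A or G, in 22.3% of promoters). The last, CTTCCT, is the reverse complement of the ETS letters AGGAAG, which 28.7% of promoters held. The motifs do not overlap each other, and a match describes letters only, not a bound site.

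In shNS cells treated with ethanol, GP5 was detected at 385, 319 and 400 reads, or 33.4, 29.3 and 34.0 CPM after upper quartile normalization, a mean of 32.2 CPM ± 2.53 (SD, n = 3). After dex the same cells gave 115, 73 and 110 reads, or 10.6, 6.27 and 8.88 CPM, a mean of 8.57 ± 2.17 (SD, n = 3). Every dex library was below every ethanol library. The fitted log2 difference was -1.93 (standard error 0.28, 95% interval -2.51 to -1.36), the 11th lowest of the 10167 transcripts. The test of edgeR called 9.95% of all transcripts in this contrast, and GP5 was chosen partly for it.

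Cells expressing shG9a had the highest GP5 levels of the 8 conditions. In ethanol the 3 libraries held 101, 99.7 and 109 CPM, a mean of 103.4 ± 5.27 (SD, n = 3), which was 3.21-fold that of shNS cells. In dex they held 53.0, 46.1 and 62.4 CPM, a mean of 53.9 ± 8.19 (SD, n = 3), which was 6.28-fold that of dex-treated shNS cells. The lowest shG9a library, a dex-treated one, was thus above every shNS library of either treatment. The log2 difference from shNS was 1.70 in ethanol (standard error 0.23, 95% interval 1.22 to 2.18) and 2.68 in dex (0.27, 2.12 to 3.23), the 9th and the 5th highest of all transcripts. The background of calls was 3.73% in ethanol and 8.8% in dex.

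**Figure D1:**
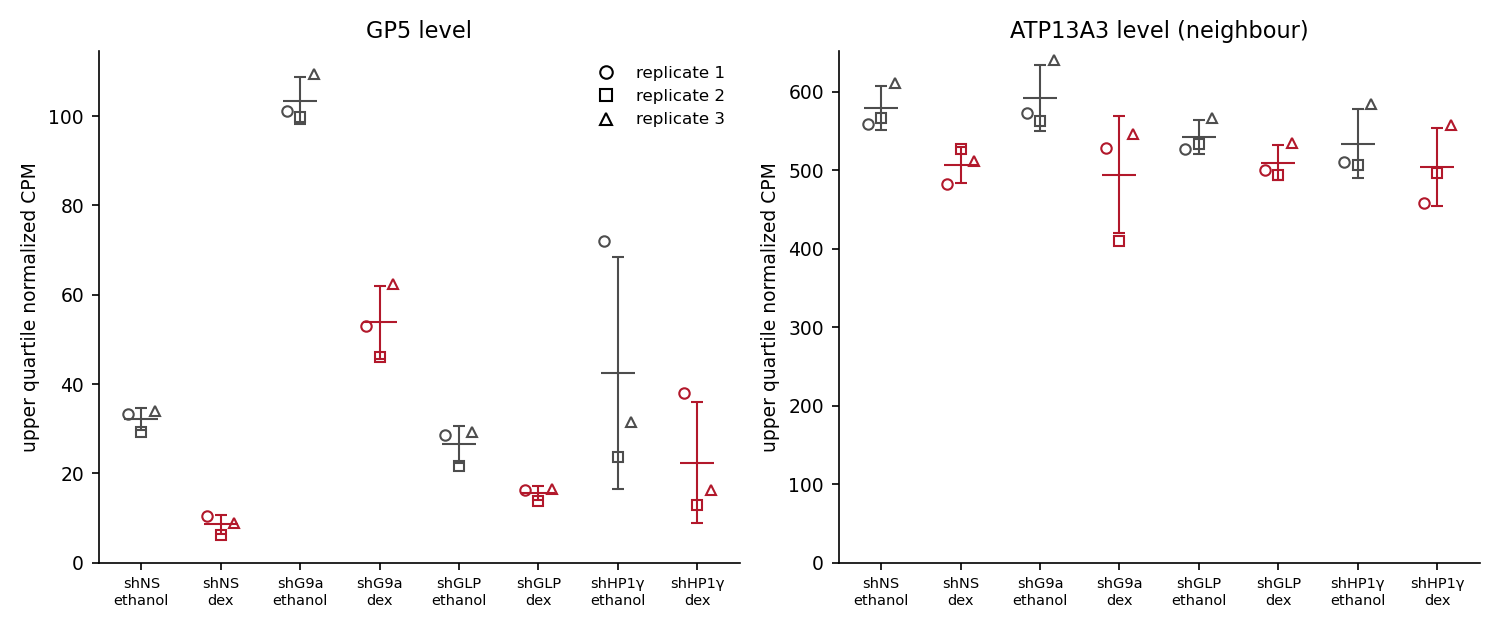
Normalized CPM (y axis, linear from 0) of GP5 (left) and of the neighbouring gene ATP13A3 (right) in each library, by shRNA and treatment (x axis). Symbols are the replicates, horizontal bars the mean and vertical bars the SD (n = 3). GP5 sits between 46.1 and 109 CPM in the shG9a libraries and between 6.27 and 34.0 CPM in the shNS libraries, and replicate 1 is the highest of the 3 in both shHP1γ conditions.

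The tests of GP5 against shNS cells use the shNS libraries that entered its choice, so their p-values, above all in dex, are not independent of that choice. In ethanol the shGLP libraries held 28.5, 21.7 and 29.3 CPM (mean 26.5 ± 4.18, SD, n = 3). The log2 difference from shNS was -0.29 (standard error 0.25, 95% interval -0.80 to 0.22, adjusted p = 0.724, edgeR quasi-likelihood test with Benjamini-Hochberg adjustment over all transcripts), and 3.61% of transcripts were called. In dex the shGLP libraries held 16.3, 13.7 and 16.6 CPM (mean 15.5 ± 1.57, SD, n = 3), all above the highest shNS dex library. That difference was 0.88 (standard error 0.30, 95% interval 0.26 to 1.49), higher in 3 of 3 replicates, and did not pass the threshold (adjusted p = 0.0951, edgeR, with 5.77% of transcripts called). It passed in 4 of 9 other settings, among them edgeR with no filter on low counts (0.83, adjusted p = 3.82e-07). GP5 was thus 0.822-fold of shNS in ethanol and 1.81-fold in dex on the group means. The paper lists GP5 among its dex-regulated genes dependent on G9a, GLP and HP1γ. That set holds genes called for each of the depletions in dex, by edgeR after a correction for batch effects. The paper's own analysis of these libraries thus called GP5 for shGLP and for shHP1γ in dex.

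HP1γ depletion gave the widest spread. In ethanol the shHP1γ libraries held 72.1, 23.7 and 31.6 CPM (mean 42.5 ± 26.0, SD, n = 3), and in dex 38.0, 12.9 and 16.4 CPM (mean 22.4 ± 13.6, SD, n = 3). Replicate 1 was the high library in both treatments. In dex all 3 libraries were above the shNS dex range, with a log2 difference of 1.34 (standard error 0.28, 95% interval 0.75 to 1.93, adjusted p = 0.00619, edgeR, with 4.09% of transcripts called). GP5 was thus called higher with shHP1γ in dex-treated cells, but not without the shHP1γ dex library of replicate 1 (0.89, adjusted p = 0.0843, edgeR) or without all replicate 3 libraries (1.54, adjusted p = 0.0962). Replicates 2 and 3 alone gave 0.93 and 0.81, and replicate 1 gave 1.75. In ethanol the difference of 0.32 (0.24, -0.18 to 0.81) did not pass (adjusted p = 0.617, edgeR, 2.91% called), and its sign was positive in replicate 1 (1.09) and negative in replicates 2 and 3 (-0.30 and -0.10).

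The shHP1γ libraries of replicate 1 bear on every test of GP5, since all libraries shared 1 estimate of the spread. They were left out after their GP5 values had been seen, so values without them are given as a description. Without both, the shHP1γ difference from shNS was 0.80 in dex (standard error 0.13) and -0.19 in ethanol. The shGLP difference in dex was 0.86, and its standard error went from 0.30 to 0.12. Over the 4102 transcripts with at least 16 CPM on average, these libraries had a median correlation with the other libraries of 0.982 in ethanol and 0.974 in dex. The lowest of all 24 was 0.968, in the shG9a dex library of replicate 2, which also had the largest total. Without that library the shG9a difference in GP5 in dex was 2.62. Their reads from CBX3, 6.26 and 4.42 CPM, were just above and just below the range of the other shHP1γ libraries (4.99 to 5.98).

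Other transcripts that shG9a raised were checked in the same libraries. Besides GP5, 8 transcripts were called and at least 2-fold higher with shG9a in both treatments. Their median log2 difference from the shNS library of the same replicate was 0.68 in ethanol and 0.51 in dex in shHP1γ replicate 1. It was 0.25 and -0.03 in replicate 2 and 0.18 and -0.11 in replicate 3. Within shHP1γ cells, GP5 and the median of these transcripts were thus both highest in replicate 1. In the 6 shGLP libraries that median was 0.55 to 0.95, also in ethanol, where GP5 was below shNS. All these medians are taken over shNS libraries that also chose the 8 transcripts, so they are not independent of that choice. The part of the shHP1γ libraries of replicate 1 in the GP5 values was not tested beyond leaving them out.

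shHP1γ and shGLP cells were also compared directly, without the shNS libraries that entered the choice of GP5. The log2 difference was 0.61 in ethanol (standard error 0.24, 95% interval 0.10 to 1.11, adjusted p = 0.208, edgeR, with 4.2% of transcripts called). In dex it was 0.46 (0.27, -0.09 to 1.01, adjusted p = 0.48, edgeR, 4.02% called). Neither passed, but the value in ethanol passed with no filter on low counts (0.57, adjusted p = 0.00014, edgeR). Without the shHP1γ libraries of replicate 1 the values were 0.10 and -0.057. The levels in shG9a cells were above those in shGLP cells by 1.99 in ethanol (standard error 0.24) and 1.80 in dex (0.25), with no overlap of the libraries in either treatment, which is given without a test because the shG9a libraries chose the gene. The background of calls there was 6.23% and 8.62%.

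**Figure D2:**
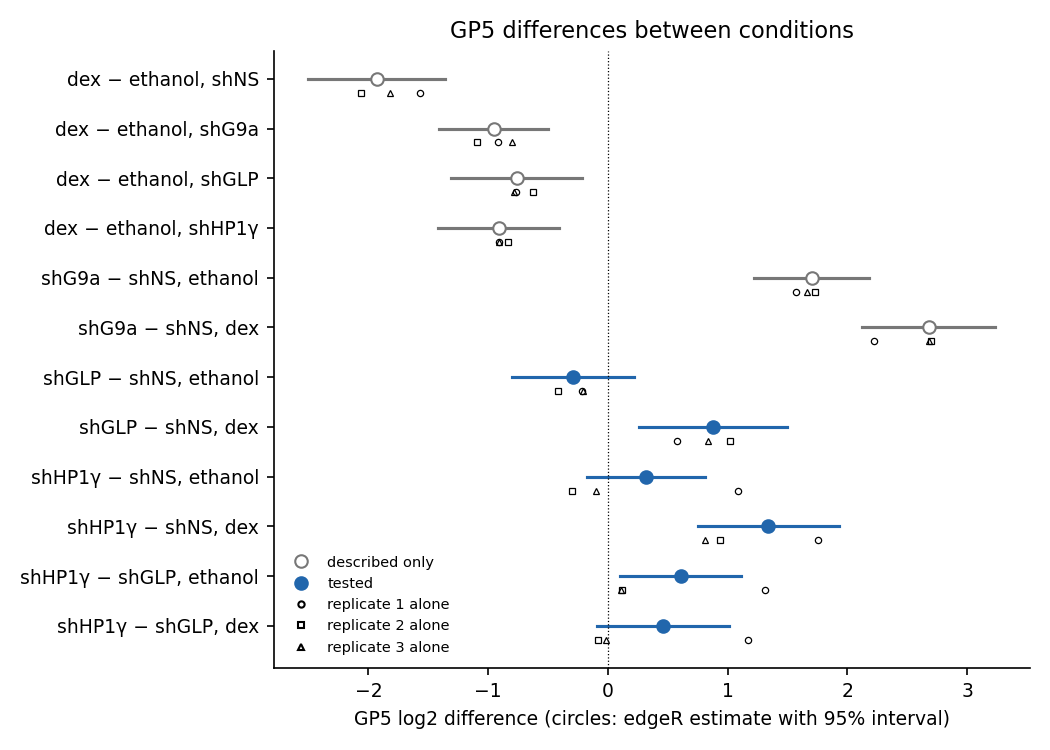
Log2 differences of GP5 (x axis) for each comparison (y axis), as edgeR estimates with 95% intervals (large circles and lines) and as the differences within each replicate (small symbols). Open grey circles are differences that chose GP5, share its dex contrast or use shG9a, and are described only, and filled blue circles were tested. The intervals of shHP1γ and shGLP against shNS lie above 0 in dex and include 0 in ethanol.

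In order of the means, GP5 was highest in shG9a ethanol, then shG9a dex, shHP1γ ethanol, shNS ethanol, shGLP ethanol, shHP1γ dex, shGLP dex and shNS dex. Libraries of neighbouring conditions overlapped between shG9a dex and shHP1γ ethanol, between shHP1γ ethanol and shNS ethanol, and on both sides of shHP1γ dex. The shNS and shGLP ethanol libraries differed at their nearest ends by less than the rounding of the values given. Counting error alone was 2.75% of the value in the deepest GP5 measurement (1325 reads) and 11.7% in the shallowest (73 reads, exact 95% Poisson interval 57.2 to 91.8). It was smaller than the spread between replicates in shHP1γ cells.

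GP5 was lower after dex in every replicate of every kind of cell, but by a different share. In shNS cells dex left 31.7%, 21.4% and 26.1% of the ethanol level of the same replicate (mean 26.4% ± 5.14, SD, n = 3). The share left was 51.9% ± 5.40 in shG9a cells, 59.0% ± 3.74 in shGLP cells and 52.9% ± 1.32 in shHP1γ cells (SD, n = 3 each). The lowest value among the depleted cells, 46.3%, was above the highest in shNS cells. The shHP1γ libraries of replicate 1 were not apart here: the shares were 52.6%, 54.4% and 51.8% in replicates 1 to 3.

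On the CPM scale dex lowered GP5 by 23.7 ± 1.24 in shNS cells and by 49.6 ± 3.50 in shG9a cells (SD, n = 3), since shG9a cells started higher. The loss was 11.0 ± 2.62 CPM in shGLP cells and 20.1 ± 12.4 CPM in shHP1γ cells. As log2 differences dex gave -0.96 in shG9a cells (standard error 0.22), -0.76 in shGLP cells (0.26) and -0.91 in shHP1γ cells (0.24). The order of the conditions thus depends on whether the loss is counted in CPM or as a share.

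The difference of the dex effect from that in shNS cells was tested for shGLP and shHP1γ. For shGLP it was 1.17 on the log2 scale (standard error 0.39, 95% interval 0.37 to 1.97), higher in 3 of 3 replicates, with an unadjusted p of 0.00603 and an adjusted p of 0.739 (edgeR, with 0.118% of transcripts called). For shHP1γ it was 1.02 (0.37, 0.25 to 1.79), higher in 3 of 3 replicates, with an adjusted p of 1 (edgeR, 0.0197% called). Neither passed. With no filter on low counts both did, at 1.17 and 1.02 (adjusted p = 3.88e-07 and 2.79e-05, edgeR). Without the shHP1γ libraries of replicate 1 the values were 1.15 and 0.99. For shG9a the value was 0.98 (standard error 0.36), given without a test (0.0885% called). These differences all subtract the dex effect in shNS cells that chose GP5, so their p-values are not independent of that choice, nor the 3 depletions of each other.

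The next gene, ATP13A3, a P5-type ATPase that transports polyamines, starts upstream of GP5 on the same strand, and its near end is 3405 bp from GP5. It was well covered, with group means from 494 to 592 CPM, and was not called in any of the 7 comparisons of dex and depletion with shNS. Its log2 difference with shG9a was 0.03 in ethanol (adjusted p = 0.903, edgeR) and -0.04 in dex (adjusted p = 0.774, edgeR). Counted per 1000 ATP13A3 reads of the same library, GP5 reads numbered 55.7 ± 4.01 in shNS ethanol and 17.1 ± 5.02 in shNS dex (SD, n = 3). In shG9a cells they numbered 175 ± 3.42 in ethanol and 109 ± 7.56 in dex. All 8 conditions had the same order per ATP13A3 read as in CPM.

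Within 1 Mb on either side, 27 genes were in the table and 7 were tested. LRRC15 and CPN2, the nearest protein-coding genes on the other side at 25077 and 43492 bp, were too low to test. Of the 7, dex in shNS cells raised FAM43A (286616 bp away) and lowered none. FAM43A went from 120 ± 11.4 CPM to 305 ± 25.3 (SD, n = 3), a log2 difference of 1.34 (adjusted p = 2.72e-13, edgeR). It was lower with shG9a, with log2 differences of -0.54 in ethanol and -0.24 in dex (adjusted p = 1.49e-05 and 0.0114, edgeR), and with shGLP, with -0.45 and -0.31 (adjusted p = 5.67e-05 and 0.00146, edgeR). It was higher with shHP1γ, with 0.34 and 0.35 (adjusted p = 0.00218 and 0.000681, edgeR). With dex and with shG9a FAM43A thus had the opposite sign to GP5. The other calls were LSG1, higher with shG9a in dex by 0.20 (adjusted p = 0.0349, edgeR), and XXYLT1, higher with shHP1γ in dex by 0.50 (adjusted p = 0.0347, edgeR). The XXYLT1 call was lost in each of 10 refits that left out a library or replicate. Over all settings the LSG1 call was lost in 10 of 19 refits and those of FAM43A in 17 of 133.

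**Figure D3:**
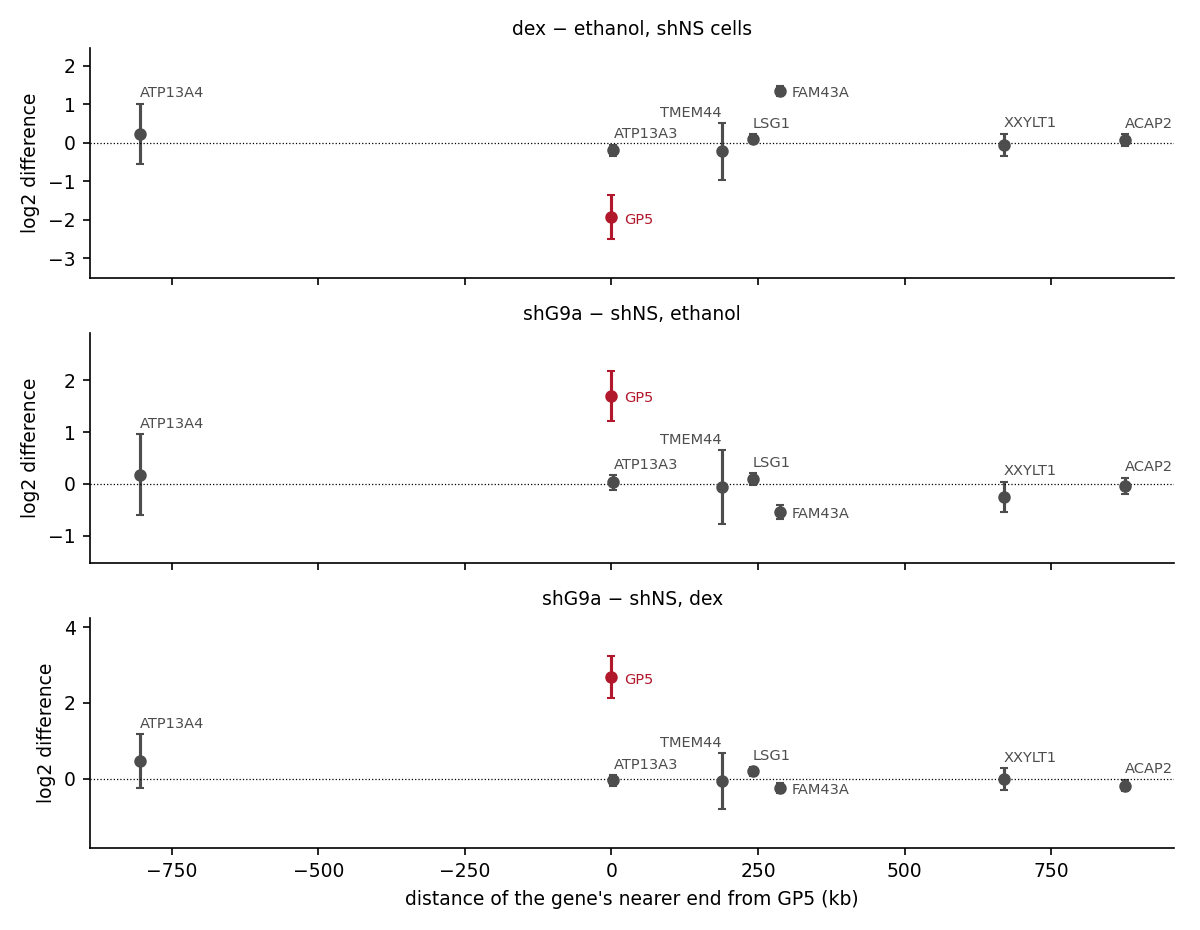
Log2 difference with 95% interval (y axis) of GP5 (red) and of the 7 tested genes within 1 Mb (grey) against the distance of each gene's nearer end from GP5 in kb (x axis), for dex in shNS cells and for shG9a against shNS in ethanol and in dex. ATP13A3 stays close to 0 in all 3 panels, and FAM43A has the opposite sign to GP5 in each.

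GP5 is 1 subunit of a complex, and the other subunits were looked up. GP1BA, the subunit that binds von Willebrand factor, had 86 to 137 reads per library, with group means from 9.25 to 10.6 CPM. It was called in none of the 7 comparisons. Its log2 difference with shG9a was -0.09 in ethanol (adjusted p = 0.863, edgeR) and 0.10 in dex (adjusted p = 0.758, edgeR). GP9 had 0 to 11 reads per library, and GP1BB was listed at 0 in all. Both were below the filter. YWHAZ, a 14-3-3 protein that binds the complex inside the cell, was called in none of the 7 comparisons either. Its log2 difference with shG9a was 0.05 in ethanol (adjusted p = 0.932, edgeR) and 0.34 in dex (adjusted p = 0.138, edgeR), beside medians of -0.02 and 0.00 over all transcripts.

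Of 15 other platelet receptor, granule and shape genes, 5 were tested (ITGA2B, ITGB3, TUBB1, F2RL3 and THBS1). Dex in shNS cells raised F2RL3, which encodes the thrombin receptor PAR4, from 298 ± 4.45 to 534 ± 24.7 CPM (SD, n = 3, log2 difference 0.84, adjusted p = 2.29e-06, edgeR). None of the 5 was called with any of the 3 shRNAs in either treatment, where 2.91% to 8.8% of all transcripts were. ITGB3, the integrin β3 chain, had 75 reads in replicate 1 of shHP1γ ethanol against 9 and 15 in the others, and 47 in replicate 1 of shHP1γ dex against 16 and 11. The shNS libraries had 6 to 13. Replicate 1 was thus the high library for ITGB3, as for GP5, and the shHP1γ difference did not pass (1.67 in ethanol and 1.58 in dex, adjusted p = 0.106 and 0.161, edgeR). PF4 and PPBP, granule chemokines of platelets, were listed at 0 in every library.

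Of 14 transcription factors of the megakaryocyte and early blood lineages, 5 were tested (RUNX1, LYL1, ZFPM1, ETV6 and LDB1). LYL1, a helix-loop-helix factor, was lower with shG9a, with log2 differences of -0.34 in ethanol and -0.32 in dex (adjusted p = 0.00557 and 0.00551, edgeR) and higher with shHP1γ in ethanol by 0.30 (adjusted p = 0.0162). Dex in shNS cells raised ZFPM1, a GATA cofactor (0.35, adjusted p = 0.0389, edgeR), and lowered ETV6, an ETS repressor (-0.24, adjusted p = 0.0324, edgeR). ETV6 was higher with shGLP in dex by 0.29 (adjusted p = 0.0121, edgeR). Under other settings or without single libraries the calls were lost in 13 of 57 refits for LYL1, 9 of 19 for ZFPM1 and 19 of 38 for ETV6. GATA1 had 0 to 4 reads per library. FLI1, which has 4 accessions, had 1 to 11. Some other genes with several accessions, such as OPA1, were listed at 0 here, so these counts do not show that FLI1 is hardly expressed.

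The label of the cells was checked against markers. Of 13 markers of B-cell precursors 5 were tested, and RAG1, IGLL1 and CD79A had reads in every library. The summed level of the list ran from 1175 to 2912 CPM, nearly all of it RAG1. RAG1, a subunit of the V(D)J recombinase, was higher with shG9a (0.58 in ethanol and 0.42 in dex, adjusted p = 0.00167 and 0.013, edgeR) and with shGLP (0.56 and 0.68, adjusted p = 0.00176 and 0.000147). RAG2, the other subunit, was lower with shG9a in dex (-1.05, adjusted p = 0.00561, edgeR). There CD79A and IGLL1 had log2 differences of -0.89 and -0.48 (adjusted p = 0.0708 and 0.0725, edgeR). The part of these markers in the GP5 values was not tested. CD79B, DNTT, CD22 and CD24 were at 0 in shNS ethanol, in a table where OPA1, a mitochondrial gene with 10 accessions, was also at 0 in every library, so a gene listed at 0 here is not shown to be absent. The 13 megakaryocyte and platelet markers, which do not include GP5, summed to 17.4 to 22.5 CPM in shG9a cells and 17.7 to 20.2 in shNS cells. GP1BB, PF4, PPBP, GP6 and TREML1 were at 0 in every library. T-cell and erythroid lists reached at most 0.271 and 0.513 CPM. The myeloid list reached 20.4 to 34.0 CPM in shGLP cells, 2 of its 6 genes were tested and LYZ was called, while in the other cells it was 2.74 to 11.7 CPM. Its part in the GP5 values was not tested. In bulk RNA, fewer cells of a type and less RNA per cell cannot be told apart.

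Library totals ran from 9289533 to 14387770 reads (median 11132064.5). With dex in shNS cells 5 of 6 GR response genes rose (FKBP5, TSC22D3, PER1, KLF9 and NFKBIA), and NR3C1, the GR gene, did not pass. No counts were matched to EHMT2, so the depletion of G9a was not checked here. The paper reports that G9a, GLP and HP1γ were depleted as protein and as mRNA in these cells. EHMT1 had 18 to 50 reads per library and was at 1.66 to 3.21 CPM in shGLP cells and 2.67 to 4.60 in shNS cells. CBX3 was at 4.42 to 6.26 CPM in shHP1γ cells and 6.30 to 7.81 in shNS cells. Neither gene was called, so these counts are a weak check of the labels.

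The transcripts whose pattern was most like that of GP5 were ranked by Pearson correlation of log2(CPM + 1) over the 24 libraries, among 5604 transcripts of at least 5 CPM. The libraries share conditions and replicate days, and no test was made. IRX1, a homeobox gene, came first with r = 0.92, followed by XKR4 (0.91), HIVEP1, CKAP4 and LRRC2 (0.88 each). Over the 18 libraries without shG9a the correlations were 0.89, 0.88, 0.76, 0.79 and 0.80. These 18 libraries are among the 24 that ranked the transcripts, so the values are not independent of the ranking.

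Their ranges were far narrower than that of GP5. IRX1 had 88.7 ± 4.34 CPM in shNS ethanol, 69.0 ± 2.44 in shNS dex, 110 ± 2.83 in shG9a ethanol and 96.5 ± 8.88 in shG9a dex (SD, n = 3). XKR4 had 21.2 ± 1.89, 15.6 ± 1.11, 33.8 ± 2.06 and 27.1 ± 2.82 CPM in the same order, and in shHP1γ cells ran from 16.9 to 42.2 CPM. IRX1, XKR4, CKAP4 and LRRC2 each overlap an annotated gene on the other strand, and HIVEP1 one on its own strand, so their reads may not be all their own.

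The patterns most opposite to GP5 were those of LCN6 and LCN10 (r = -0.94 each), lipocalin genes that an annotated read-through transcript joins, and SLC35F6 (-0.91), which overlaps CENPA. LCN6 had 24.8 ± 1.16 CPM in shNS ethanol and 47.3 ± 3.16 in shNS dex, against 11.4 ± 0.536 and 18.3 ± 2.42 in shG9a cells (SD, n = 3). Dex and shG9a thus moved LCN6 in directions opposite to those of GP5. It was picked for its opposite pattern in these same libraries, so this describes the choice and is no separate result. Since reads of LCN6 and LCN10 could be split between them, they are not 2 separate observations.

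**Figure D4:**
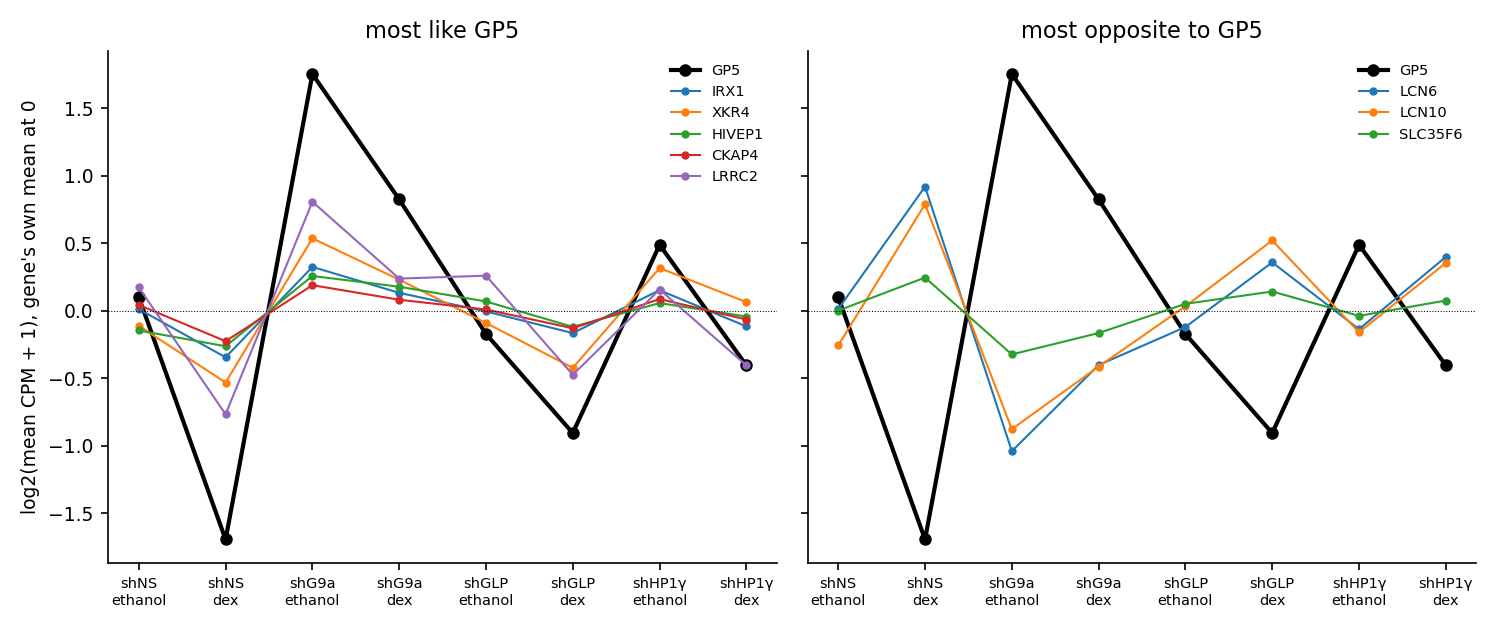
Log2(mean CPM + 1) by condition (x axis), each gene centred on its own mean over the 8 conditions (y axis), for GP5 (black) with the 5 transcripts most like it (left) and the 3 most opposite (right). Points are means of 3 libraries. GP5 spans the widest range in both panels.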

How the data were processed

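Cells were Nalm6 populations as described above. RNA had been sequenced in pairs of 75-base reads. The authors cut adapters and low-quality ends, aligned the reads with HISAT2 (hg19) and made counts per RefSeq accession with GenomicAlignments. Tool versions, counting mode, strand handling and RefSeq release are not given in the sources used here. The deposited table, although named for CPM, holds whole numbers with differing library totals and was used as raw counts. All 24 columns were matched to samples by name (0 unmatched). A second deposited table holds the authors' log2 fold changes and FDR values and was not used except for gene symbols.

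Accessions were named from the RefSeq gene table (63568 matched) and, failing that, from the authors' symbols (177), while 774 had none. Counts were tested with edgeR 4.0.16 (R 4.3.3) by the quasi-likelihood F test. One model with the 8 conditions and the replicate number held all 24 libraries, with upper quartile factors and the study's filter, in place of its correction for unwanted variation (RUV). Transcripts with an adjusted p of at most 0.05 (Benjamini-Hochberg) were called. Standard errors are the log2 difference divided by the square root of F. The replicate number was kept as a block because the labels' extraction protocol places the replicates of a condition on different days, although it ties no number to a day, and the study corrected for batch. Of 84 pairs of same-numbered libraries, 81 had deviations from their group means that correlated above 0.1 (range -0.08 to 0.90, median 0.45). No library duplicated another (chi-square per degree of freedom 3.69 or more). The code was tested on simulated counts. GP5, the gene lists and the comparisons were chosen with earlier results of these data known. The rule for named genes took GP5, genes within 1 Mb, the depleted genes, the lists above, and the 5 transcripts most like GP5 and 3 most opposite. Some members of these lists are not reported here. Intervals on counts cover counting error only. Alternatives were TMM factors, DESeq2 1.42.0, limma 3.58.1, other filters, fits to the compared groups, sums per gene and leaving out libraries.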

Additional observations from a re-analysis of the deposited data

Results flagged for a closer look

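The effect of shGLP on GP5 had opposite signs in the 2 treatments. In all 3 replicates GP5 was lower in shGLP than in shNS cells in ethanol, and in all 3 it was higher in dex. The difference between the effects was 1.17 on the log2 scale and did not pass the test (adjusted p = 0.739, edgeR), though it did with no filter on low counts. It subtracts the dex effect in shNS cells that chose GP5, so neither p-value is independent of that choice. For PER1, a circadian gene induced by glucocorticoids, such a difference passed: its dex response was smaller in shG9a than in shNS cells by -0.72 on the log2 scale (adjusted p = 0.00344, edgeR).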

How the results depend on the processing

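With 3 libraries a condition, the spread of GP5 in the shHP1γ libraries limits its tests. Each GP5 value was refitted under 9 other settings and without single libraries or replicates. Outside the leave-outs no GP5 log2 difference changed sign, and the call for shHP1γ in dex held in all 9 (highest adjusted p = 0.0462, edgeR, without the replicate block). All 9 use the shNS dex libraries that entered the choice of GP5, so they are no independent support for the call. The shGLP difference in dex passed with limma (0.81 and 0.88 for pseudocounts of 1 and 0.1 CPM), with no filter (0.83, adjusted p = 3.82e-07, edgeR) and in a fit of the compared groups alone (0.86, adjusted p = 2.61e-05, edgeR). With no filter the difference of shHP1γ from shGLP in ethanol (0.57) and the differences of the dex effect for shGLP (1.17) and shHP1γ (1.02) also passed. The fit of the compared groups alone passed shGLP in ethanol (-0.28, adjusted p = 0.0421, edgeR) and the dex effect for shGLP (1.15). The causes were not tested.

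Without the shHP1γ libraries of replicate 1, a setting chosen after seeing their GP5 values, the differences of shHP1γ from shNS in ethanol and from shGLP in dex turned to -0.19 and -0.057. Those of shGLP in dex (0.86) and of the dex effects (1.15 for shGLP, 0.99 for shHP1γ) passed, which is no independent support.

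When 1 library or replicate number was left out, shHP1γ minus shNS ran from 0.89 to 1.54 in dex and from -0.19 to 0.59 in ethanol. In dex it lost its call without the shHP1γ dex library of replicate 1 (adjusted p = 0.0843, edgeR) and without replicate 3 (adjusted p = 0.0962). shHP1γ minus shGLP in dex ran from -0.058 to 0.70. shGLP minus shNS in dex ran from 0.76 to 1.01 and passed without replicate 1. The differences of the dex effect ran from 0.99 to 1.32 for shGLP and from 0.54 to 1.49 for shHP1γ, and both passed without replicate 1. Untested values ran from -1.13 to -0.79 for dex in shG9a cells, -0.87 to -0.64 in shGLP cells and -1.38 to -0.43 in shHP1γ cells. shG9a minus shNS in ethanol ran from 1.54 to 1.88, and shG9a minus shGLP in dex from 1.68 to 1.98.

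The replicate block changed no GP5 call. Without it the shHP1γ and shGLP differences in dex were 1.38 and 0.86 (adjusted p = 0.0462 and 0.325, edgeR). The number of transcripts called fell from 416 to 175 for shHP1γ in dex, from 587 to 269 for shGLP in dex, from 296 to 66 and from 367 to 171 for them in ethanol, and from 427 to 199 and 409 to 207 for shHP1γ against shGLP in ethanol and dex. In fits of the compared groups alone these numbers were 206, 1176, 143, 803, 136 and 140 in the same order. The calls on the dex effect went from 12 for shGLP and 2 for shHP1γ to 1 and 1 without the block, 107 and 0 in fits of those groups alone, 23 and 18 with DESeq2, and 23 and 31 with no filter. As a fold of shNS ethanol, GP5 per ATP13A3 read was 1.96 in shG9a dex (1.67 in CPM) and 0.547 in shGLP dex (0.482 in CPM). Of 456 refits of 24 calls on the other genes named, none changed sign and 91 lost the call, including all 10 without a library for XXYLT1. The 24 include 3 calls on IRX1 and 5 on LCN6 that are not given above. These genes were picked by their correlation with GP5 in the same libraries. Their calls were lost in 4 of 57 and 6 of 95 refits.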
